A study of Mus musculus with 7 samples.

Results

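Components of the circadian clock were examined in mouse liver after lipopolysaccharide (LPS), the endotoxin of Gram-negative bacteria. They are Clock, Per1, Per2, Cry1, Nr1d1, Nr1d2, Dbp, Tef, Nfil3 and Bhlhe41, chosen by name as 10 of the 56691 genes in the table. Earlier results of these data were known when the choice was made, so counts set beside a background are descriptive. Of these 10 genes, 9 had enough counts to be tested, among 13683 genes tested in all, and Bhlhe41 did not. In the clock, CLOCK pairs with BMAL1 (encoded by Arntl) and activates the Per and Cry genes through E-box sequences, and the PER and CRY proteins then repress that pair. The REV-ERB proteins, encoded by Nr1d1 and Nr1d2, repress Arntl and other genes through ROR elements, while DBP and TEF activate, and NFIL3 represses, genes that carry D-boxes. In liver these loops drive daily rhythms in many transcripts of metabolism, so the level of a clock transcript depends on the hour at which tissue is taken.

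The control group was represented by 4 mice and the LPS group by 3 mice, out of 6 mice that the study kept in each group. All were male C57BL/6J mice, an inbred laboratory strain, which were 8 weeks old when bought and were kept for 2 weeks with 12 h of light per day, chow and water. The LPS group received LPS intraperitoneally at 10 mg/kg and was killed 24 h later, and the labels call the other mice control without naming an injection. The hour of the day at which livers were taken is not given in the sources used here, so an effect of LPS and a difference in that hour cannot be told apart.

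Polyadenylated RNA of whole liver was sequenced from strand-marked libraries, and the authors deposited counts of reads per gene. Control mice 1 to 4 had 14991022, 15096573, 15721944 and 18584140 counts, and LPS mice 1 to 3 had 20500391, 17095607 and 17821331 counts. Levels are given as CPM, counts divided by the TMM-scaled library size, a scale on which values of different genes are not compared, since they are not divided by transcript length. Mitochondrial genes took 23.7%, 14.6%, 7.48% and 8.96% of the counts in control mice 1 to 4 and 6.45%, 3.83% and 3.94% in LPS mice 1 to 3. LPS mice 2 and 3 were much closer to each other than any other pair of a group. Across the 2179 genes averaging 50 CPM or more, log2 ratios between these 2 mice had an SD of 0.13, while the other 8 pairs within a group gave 0.31 to 0.56. They still differed by more than counting noise, with a mean chi-square per gene of 4.73 where counting noise alone gives about 1, while the other pairs gave 32.6 to 223. They were kept as separate mice, as labelled, and every p-value rests on that label. LPS mouse 1 differed from LPS mice 2 and 3 with SDs of 0.33 and 0.32, toward the low end of the other 8 pairs. The results are given below with and without these libraries where that changes them.

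Of the 9 clock genes tested, Per1 and Nfil3 rose and Nr1d1 and Nr1d2 fell, and 5 did not pass the test (edgeR's quasi-likelihood test with Benjamini-Hochberg adjustment over all 13683 genes, passed at an adjusted p-value below 0.05). Among all genes tested, 13.3% were higher and 13% were lower by this rule, beside 2 of 9 clock genes in each direction. With a change over 2-fold also required, 1 clock gene was higher and 1 lower, where the background is 7.81% and 7.31%. Every LPS mouse lay above every control mouse for 2 of the 9 genes and below every control mouse for 3, where the background is 18.1% and 17.4%. The median log2 fold change was -0.17 over the 9 genes and -0.014 over all genes tested. The 4 calls held in each of 16 other fits, which changed the tool, scaling, filter or block, left out each mouse in turn, or summed LPS mice 2 and 3 into 1 sample. RNA came from whole liver, so fewer cells of a type and less RNA per cell cannot be told apart.

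**Figure D1:**
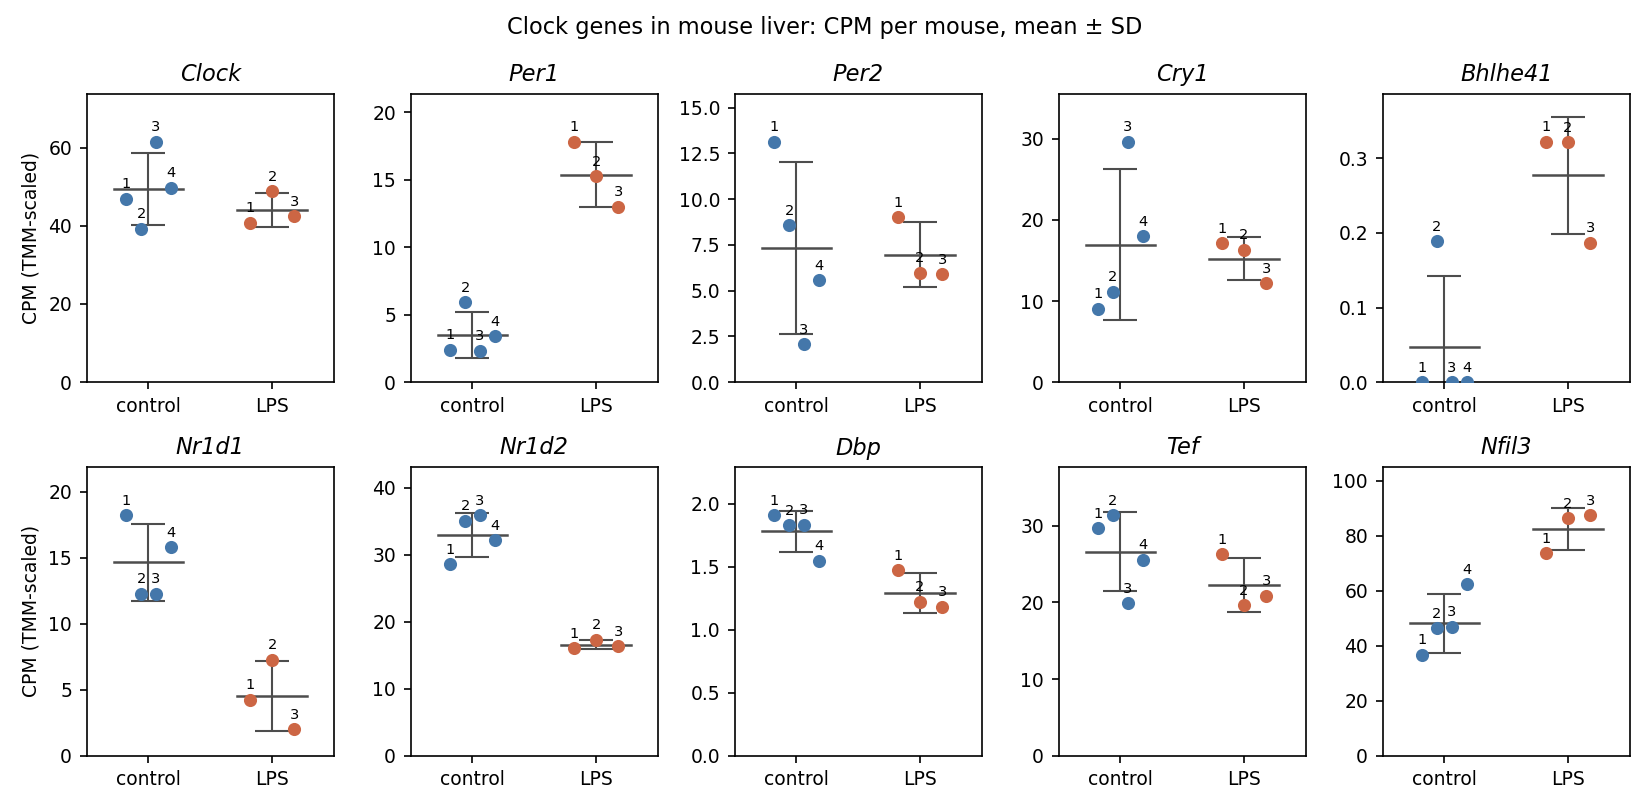
Level of the 10 clock genes in each mouse, in CPM on the vertical axis, for 4 control mice (blue) and 3 LPS mice (orange), with replicate numbers beside the points and bars for the mean ± SD. Per1 and Nfil3 lie above all control mice in the LPS group, Nr1d1, Nr1d2 and Dbp lie below, and Per2 and Cry1 spread widely among control mice.

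Clock (ENSMUSG00000029238), the activator, had 46.9, 39.2, 61.5 and 49.8 CPM in control mice 1 to 4 and 40.8, 48.8 and 42.4 CPM in LPS mice 1 to 3. The groups overlapped, with the highest and the lowest level both in control mice. The log2 fold change was -0.17 with a 95% interval from -0.52 to 0.19 (adjusted p = 0.506, edgeR's quasi-likelihood test with Benjamini-Hochberg adjustment). Without control mouse 3 it was -0.046 and without control mouse 2 it was -0.28, and Clock passed in 0 of 16 other fits, DESeq2 among them. Its partner Arntl, which encodes BMAL1, ranged from 16.7 to 24.4 CPM in control mice and from 14.5 to 21 CPM in LPS mice. The interval for its log2 fold change ran from -0.63 to 0.16, so a fall of 0.63 or a rise of 0.16 on the log2 scale is within it.

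Per1 (ENSMUSG00000020893), a period repressor that also responds quickly to hormonal signals, had 2.4, 5.93, 2.32 and 3.38 CPM in control mice 1 to 4 and 17.8, 15.3 and 13 CPM in LPS mice 1 to 3. Each of the 3 LPS mice lay above every control mouse, and control mouse 2 was the highest of its group. Control mice averaged 3.51 ± 1.68 CPM (SD, 4 mice) and LPS mice 15.4 ± 2.41 CPM (SD, 3 mice), which the fit put at 4.37-fold higher. By the fit it rose by 2.13 on the log2 scale (SE 0.30, adjusted p = 2.16e-04, edgeR's quasi-likelihood test with Benjamini-Hochberg adjustment). It was 2.01 without LPS mouse 1 and 2.19 with LPS mice 2 and 3 summed into 1 sample.

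Per2 (ENSMUSG00000055866), the other period gene of the list, had 13.1, 8.57, 2.08 and 5.56 CPM in control mice 1 to 4 and 9.02, 5.98 and 5.91 CPM in LPS mice 1 to 3. The LPS mice all fell inside the range of the control mice, whose ends were control mouse 1 and control mouse 3. Its log2 fold change was -0.061 with an interval from -1.03 to 0.91, wide enough to hold a change of close to 2-fold either way. Without control mouse 1 the log2 fold change was 0.37 and without control mouse 3 it was -0.37, with adjusted p-values above the threshold in both fits. The SD of log2 CPM of Per2 among control mice was 1.11, at percentile 96.2 of all genes tested.

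Cry1 (ENSMUSG00000020038), a cryptochrome repressor, had 9.05, 11.2, 29.7 and 18 CPM in control mice 1 to 4 and 17.1, 16.3 and 12.2 CPM in LPS mice 1 to 3. Here too the LPS mice lay inside the control range, and control mouse 3 was the highest. Its log2 fold change was -0.16 with an interval from -0.88 to 0.56, and it was 0.25 without control mouse 3. The order of the 4 control mice in Cry1 was the reverse of their order in Per2, a pattern noticed after the values were seen and not tested. The mitochondrial share of counts had the same order as Per2, at 23.7%, 14.6%, 7.48% and 8.96% in control mice 1 to 4. Its part in the levels of Per2 and Cry1 was not tested. The SD of log2 CPM among control mice was 0.76 for Cry1, at percentile 88.6, against 0.26 among LPS mice.

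Nr1d1 (ENSMUSG00000020889), which encodes the repressor REV-ERB alpha, had 18.2, 12.3, 12.3 and 15.8 CPM in control mice 1 to 4 and 4.24, 7.27 and 1.99 CPM in LPS mice 1 to 3. Every LPS mouse lay below every control mouse, and LPS mice 2 and 3 were the highest and the lowest of their group. Control mice averaged 14.7 ± 2.91 CPM (SD, 4 mice) and LPS mice 4.5 ± 2.65 CPM (SD, 3 mice), which the fit put at 3.26-fold lower. On the log2 scale the change was -1.71 (SE 0.34, adjusted p = 2.85e-03, edgeR's quasi-likelihood test with Benjamini-Hochberg adjustment). It was -1.36 without LPS mouse 3, -2.21 without LPS mouse 2 and -1.66 without LPS mouse 1, and it passed the test in each of these fits.

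The gap in Nr1d1 between LPS mice 2 and 3 contrasts with how alike those libraries were. Nr1d1 had 113 counts in LPS mouse 2 and 32 counts in LPS mouse 3, a ratio of 3.65 per scaled library with a 95% interval from 2.45 to 5.59 that covers counting error only. It ranked 16 by size of difference among 11250 genes with at least 50 counts in both libraries together. The other 14 clock genes with that many counts differed between these mice by at most 0.42 on the log2 scale, the value of Cry1. Its paralog Nr1d2 had 269 and 262 counts in them, a ratio of 1.06 with an interval from 0.893 to 1.26.

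Nr1d2 (ENSMUSG00000021775), which encodes REV-ERB beta, had 28.6, 35, 35.9 and 32.1 CPM in control mice 1 to 4 and 16.1, 17.3 and 16.3 CPM in LPS mice 1 to 3. The 3 LPS mice were close to each other and all below the control mice. Control mice averaged 32.9 ± 3.32 CPM (SD, 4 mice) and LPS mice 16.6 ± 0.663 CPM (SD, 3 mice), which the fit put at 1.99-fold lower. Its log2 fold change was -0.99 (SE 0.15, adjusted p = 2.8e-04, edgeR's quasi-likelihood test with Benjamini-Hochberg adjustment). Both REV-ERB genes thus fell, and whether the fall of Nr1d1 was larger than that of Nr1d2 was not tested.

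Bhlhe41 (ENSMUSG00000030256), which encodes the E-box repressor DEC2, was near the limit of detection, with 0, 3, 0 and 0 counts in control mice 1 to 4 and 7, 5 and 3 counts in LPS mice 1 to 3. It was not tested because of these low counts. Per scaled library the LPS mice held 6.29 times the counts of the control mice, with an interval from 1.78 to 33.9 for counting error only. When no filter was applied, its log2 fold change was 2.42 (SE 1.65, adjusted p = 0.355, edgeR's quasi-likelihood test with Benjamini-Hochberg adjustment), which did not pass.

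Dbp (ENSMUSG00000059824), an activator of genes with D-boxes whose liver transcript is known for a large daily swing, had 1.91, 1.83, 1.83 and 1.55 CPM in control mice 1 to 4 and 1.47, 1.22 and 1.18 CPM in LPS mice 1 to 3. Every LPS mouse lay below every control mouse, but these levels rest on 19 to 32 counts per library. The log2 fold change was -0.45 with an interval from -1.36 to 0.45 (adjusted p = 0.47, edgeR's quasi-likelihood test with Benjamini-Hochberg adjustment), so a difference was not detectable at this depth. Among control mice the SD of its log2 CPM was 0.13, at percentile 9.59 of all genes tested. At such low counts that SD includes counting error and says little about how alike the mice were.

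Tef (ENSMUSG00000022389), a D-box activator of the same family, had 29.7, 31.4, 19.9 and 25.6 CPM in control mice 1 to 4 and 26.3, 19.6 and 20.9 CPM in LPS mice 1 to 3. The groups overlapped, with control mouse 3 down among the LPS mice. Its log2 fold change was -0.26 with an interval from -0.65 to 0.14. Hlf, another D-box activator of that family, had 35.4, 32.9, 37.5 and 42 CPM in control mice and 44.7, 44.1 and 44.1 CPM in LPS mice. Every LPS mouse was above every control mouse for Hlf, yet its log2 fold change of 0.26, with an interval from -0.032 to 0.55, did not pass the test.

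Nfil3 (ENSMUSG00000056749), the repressor that binds the same D-boxes, had 36.8, 46.3, 46.9 and 62.4 CPM in control mice 1 to 4 and 73.7, 86.4 and 87.6 CPM in LPS mice 1 to 3. Every LPS mouse lay above every control mouse, with LPS mouse 1 nearest to them. Control mice averaged 48.1 ± 10.6 CPM (SD, 4 mice) and LPS mice 82.6 ± 7.69 CPM (SD, 3 mice), which the fit put at 1.71-fold higher. It rose by 0.78 on the log2 scale (SE 0.17, adjusted p = 5.29e-03, edgeR's quasi-likelihood test with Benjamini-Hochberg adjustment).

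Differences between log2 CPM of clock genes inside each mouse depend little on the scaling factor of its library, which enters only through the prior count, and they were compared only between mice, with no test. For Dbp minus Nfil3 the values were -4.19, -4.58, -4.6 and -5.23 in control mice 1 to 4 and -5.54, -6.01 and -6.08 in LPS mice 1 to 3. All 3 LPS mice were thus lower than all control mice, with a difference of -1.23 between the group means. For Nr1d1 minus Arntl the values were 0.13, -0.71, -0.87 and -0.62 in control mice and -1.75, -1.30 and -3.32 in LPS mice. The LPS mice were again lower throughout, and the difference between group means was -1.60, or -1.005 without LPS mouse 3. For Per2 minus Arntl the control mice ran from -3.37 to -0.34 and took in all LPS mice, and the difference between means was 0.41, or -0.13 without control mouse 3 and 0.072 without LPS mouse 1. For Dbp minus Arntl the groups overlapped, from -3.88 to -3.05 in control mice and from -4.02 to -3.21 in LPS mice, with a difference of -0.20 between means. That difference was -0.43 without LPS mouse 1, -0.018 without LPS mouse 3 and -0.061 without control mouse 1.

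**Figure D2:**
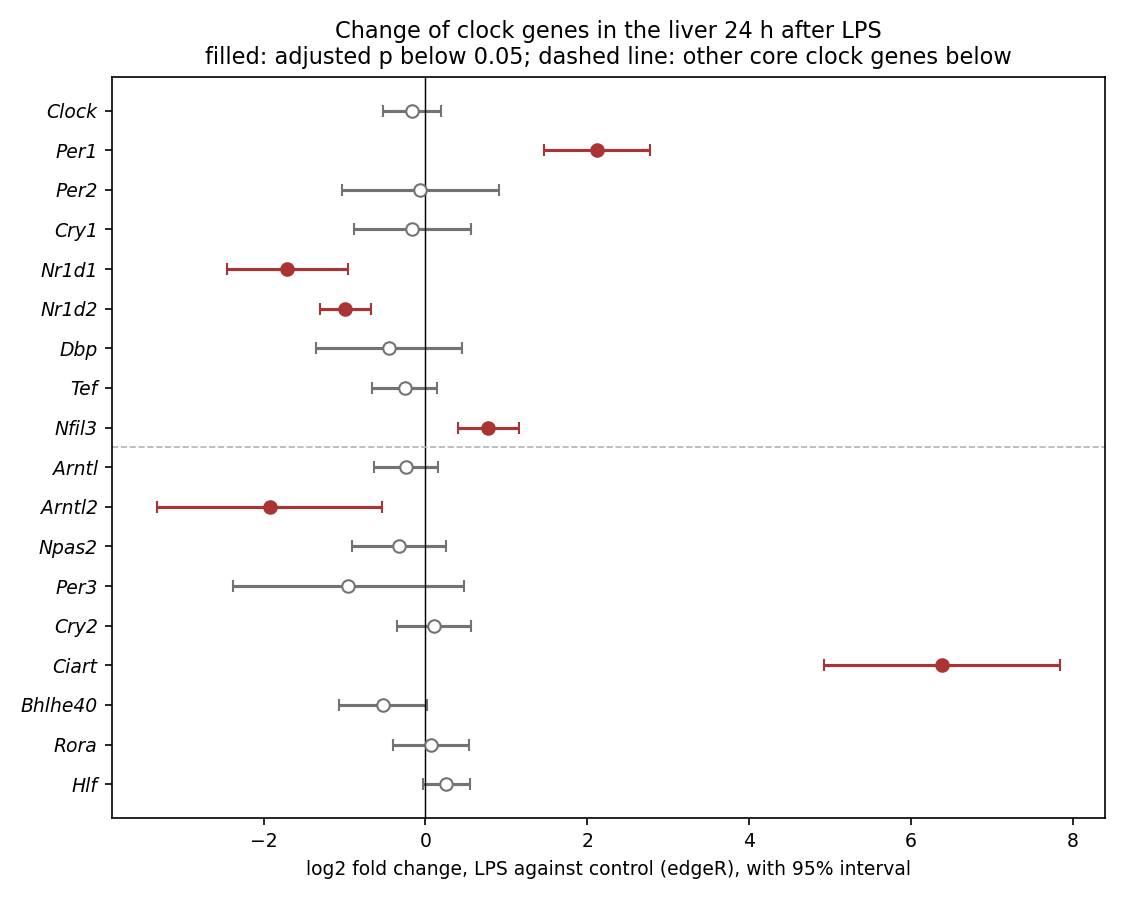
Log2 fold change of 18 tested clock genes, LPS against control, from edgeR on the horizontal axis, with 95% intervals as bars and filled points for an adjusted p below the threshold. The 9 clock genes stand above the dashed line, with Per1 at 2.13 and Nr1d1 at -1.71, and the 9 other core clock genes stand below it, with Ciart at 6.38. Ciart had only 2, 0, 0 and 1 counts in control mice 1 to 4 and passed the expression filter through the LPS mice, so the size of its change is uncertain.

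Of 10 other core clock genes, 9 were tested, 1 rose and 1 fell, where the background is 13.3% and 13%, and their median log2 fold change was -0.24. Ciart, which encodes a repressor of CLOCK and BMAL1, was close to absent in control mice, with 2, 0, 0 and 1 counts, and had 110, 65 and 61 counts in LPS mice 1 to 3. The LPS mice lay far above all control mice, at 5.06, 4.18 and 3.79 CPM. Summed over mice and per scaled library, the counts were 98.9 times as high in the LPS group, with a 95% interval from 33.4 to 483 for counting error only. By the fit the log2 fold change was 6.38, and it was 7.40 without control mouse 1 and 6.02 without control mouse 3. The adjusted p was 1.83e-05 (edgeR's quasi-likelihood test with Benjamini-Hochberg adjustment), and Ciart passed in each of 15 other fits that could test it. In the main fit Ciart met the expression filter through its counts in LPS mice, so being tested at all depended on that group. Arntl2, the gene that fell, met the filter through the control mice, with 10, 5 and 6 counts in LPS mice 1 to 3. The filter thus in part decided the count of 1 rise and 1 fall that stands beside the background. When each library had to reach 10 counts, 0 rose and 0 fell. With no filter Ciart still rose, and the fall was in Bhlhe40 and not in Arntl2.

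Arntl2, which encodes the BMAL1 relative BMAL2, had 3.04, 1.2, 0.916 and 0.87 CPM in control mice 1 to 4 and 0.46, 0.322 and 0.373 CPM in LPS mice 1 to 3. Control mouse 1 was the highest of its group, and the LPS mice lay below all control mice. Its log2 fold change was -1.92 (SE 0.64, adjusted p = 0.0427, edgeR's quasi-likelihood test with Benjamini-Hochberg adjustment), close to the threshold. The call did not hold in 8 of 15 other fits. Without control mouse 1 the log2 fold change was -1.34 (adjusted p = 0.127, edgeR), and the adjusted p was 0.0583, 0.0833, 0.14 and 0.127 without control mouse 2 and without LPS mouse 1, 2 and 3. Over all 15 fits the adjusted p ranged from 0.0273 to 0.14.

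The rest of the core clock genes did not pass the test. The log2 fold change was -0.33 for Npas2, a CLOCK relative, -0.95 for Per3, 0.10 for Cry2 and 0.074 for the ROR gene Rora. For Npas2 it was -0.14 without control mouse 3, and for Per3 it was -0.52 without control mouse 1. Rora and Cry2 were below zero, at -0.068 and -0.039, when total counts were used without scaling factors, a setting that moves the median of all genes to -0.13. Bhlhe40, which encodes the DEC1 relative of DEC2, had a log2 fold change of -0.52 with an interval from -1.06 to 0.019, and it passed without control mouse 1 (-0.72, adjusted p = 0.0108, edgeR) and with no filter (adjusted p = 0.0231). Over 16 other fits the adjusted p of Bhlhe40 ranged from 0.0108 to 0.341. Rorb had 3 counts in control mouse 3 and 0 counts in each other library, so it was not tested.

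How alike the mice of a group were in genes that swing over the day was described by the SD of log2 CPM within groups. Control mice had the larger SD for 7 of the 9 clock genes tested, against 65% of all genes tested. The median SD over the 9 genes was 0.29 among control mice and 0.22 among LPS mice, where all genes gave 0.32 and 0.23. The latter value for the clock genes was 0.0634 without LPS mouse 1, which leaves LPS mice 2 and 3. By the median absolute deviation from the group mean over 18 tested clock genes, control mice 1 to 4 stood at 0.32, 0.26, 0.37 and 0.21 and LPS mice 1 to 3 at 0.20, 0.14 and 0.11 on the log2 scale. The same over all genes was 0.25, 0.20, 0.25 and 0.18 in control mice and 0.18, 0.14 and 0.14 in LPS mice, so control mice 1 and 3 deviated most on both measures. Control mouse 3 combined the lowest Per2, the lowest Tef and the highest Cry1 and Clock of its group. Nr1d1 and Dbp had the larger SD in the LPS group, Dbp with 0.16 against 0.13. The Dbp values rest on 19 to 32 counts per library and include counting error, so their order says little about the mice. Nr1d1 had an SD of log2 CPM of 0.91 among LPS mice, at percentile 94.1, while for Hlf that SD was 0.010. The hour at which each liver was taken is not given, and its part in this spread was not tested. Among control mice the mitochondrial share of counts was highest in control mouse 1 and lowest in control mouse 3. The part of that share in the spread was not tested either.

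**Figure D3:**
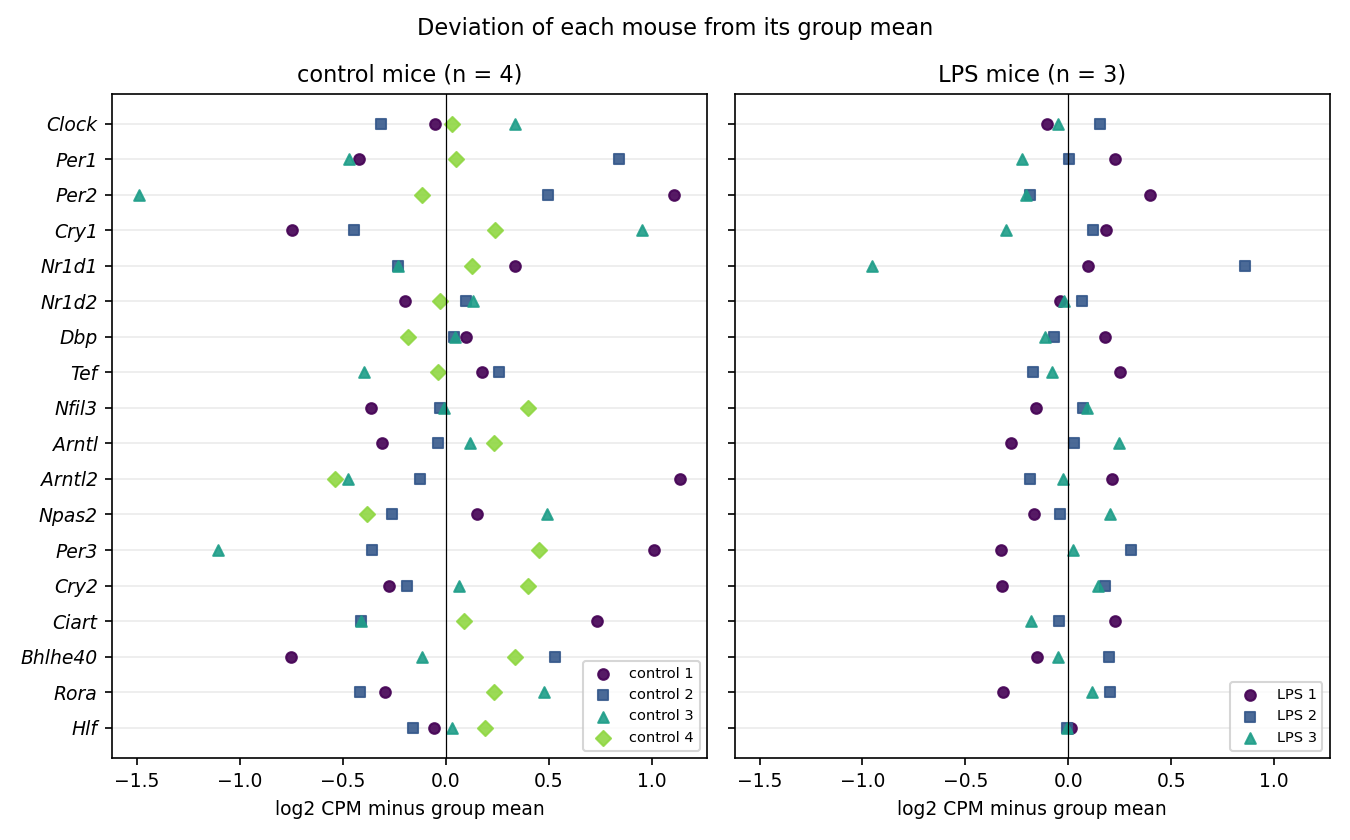
Deviation of each mouse from the mean of its group in log2 CPM, on the horizontal axis, for 18 tested clock genes, with 4 control mice on the left and 3 LPS mice on the right. Control mouse 3 is at -1.49 for Per2 and 0.95 for Cry1, and LPS mice 2 and 3 are at 0.86 and -0.95 for Nr1d1.

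Lists of genes linked to the clock were read in the same fit, and 13 genes rose and 11 fell among their 51 tested members, where the background is 13.3% and 13%. Over the other fits and thresholds 10 to 18 were higher, with 18 without control mouse 3, and 9 to 11 were lower. Of 10 kinases and turnover factors of clock proteins, 1 fell and 0 rose, with 1 higher at an unadjusted p below 0.05 in edgeR and 0 higher by DESeq2. The gene that fell was Fbxl21, which encodes an F-box protein that binds cryptochromes, and it had 4.03, 8.2, 3.48 and 5.27 CPM in control mice and 1.84, 0.837 and 1.12 CPM in LPS mice. Its log2 fold change was -2.02 (SE 0.41, adjusted p = 3.11e-03, edgeR's quasi-likelihood test with Benjamini-Hochberg adjustment). Of 11 genes with rhythmic liver expression, 3 rose and 1 fell, or 2 fell without control mouse 1. Those that rose were Lpin1, a phosphatidate phosphatase, with a log2 fold change of 1.12, Slc45a3 with 0.74 and Nampt, an enzyme of NAD synthesis, with 0.78. Nampt lost its call without LPS mouse 1, where its log2 fold change was 0.52 (adjusted p = 0.057, edgeR, with a range of 6.62e-05 to 0.057 over 16 other fits). Slc45a3 lost its call with total counts (0.62, adjusted p = 0.0515, over a range of 1.97e-04 to 0.0515 in 16 other fits). The fall was in Gys2, the liver glycogen synthase, with -0.79. Noct, a clock-driven gene that removes phosphate from NADP cofactors, had a log2 fold change of 0.87 and did not pass (adjusted p = 0.135, edgeR), except with no filter (adjusted p = 1.22e-03). For Noct it ran from 0.56 to 1.18 over 16 other fits, with adjusted p-values from 1.22e-03 to 0.382.

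Among genes reported to carry functional D-boxes, all 9 were tested, 3 rose and 6 fell, where the background is 13.3% and 13%. The median log2 fold change was -2.12. Cyp2a4, which fell, had 9, 1 and 0 counts in LPS mice 1 to 3 and passed the expression filter through the control mice. With at least 10 counts in every sample 5 fell. The same count was found without control mouse 1 or 3, without LPS mouse 2 or 3, and with LPS mice 2 and 3 summed. The rises with the smallest p were in Cyp2b10 (3.07), Por (1.99), the electron donor of cytochrome P450 enzymes, and Alas1 (2.08), the rate-limiting enzyme of heme synthesis. Alas1 had 332 CPM in control mouse 3 and 56.4 to 75.3 CPM in the other control mice, and without that mouse its log2 fold change was 3.11. The falls with the smallest p were in the P450 genes Cyp2c50 (-4.38), Cyp3a11 (-4.71) and Cyp2a5 (-4.58). Cyp2a5 had 259 counts in LPS mouse 1 and 22 and 39 in LPS mice 2 and 3. With 1 mouse left out its log2 fold change ranged from -6.07 to -4.15. The Cyp2 and Cyp3 genes have close paralogs, so how reads were divided among them is uncertain. These genes did not move one way. Dbp, Tef and Hlf did not pass and Nfil3 rose, and the part of these factors in the changes was not tested.

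Of 4 genes outside the clock that REV-ERB proteins are reported to repress, 1 rose and 2 fell, where the background is 13.3% and 13%. The rise was in Cdkn1a, a cell cycle inhibitor, with a log2 fold change of 3.67. The falls were in Elovl3, a fatty acid elongase, with -2.07, and G6pc, the catalytic unit of glucose-6-phosphatase, with -2.44. Avpr1a, a vasopressin receptor, had a log2 fold change of -0.21 and did not pass.

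Of 9 genes that respond to glucocorticoids, hormones that also act on Per1, 5 rose and 1 fell, where the background is 13.3% and 13%. By DESeq2 4 were higher, and at an unadjusted p below 0.05 in edgeR 7 were higher. The median log2 fold change was 1.12. The rises with the smallest p were in Fkbp5 (3.90), Zbtb16 (1.86) and Tat (1.40). Fkbp5, a chaperone of the glucocorticoid receptor, had 9.19, 6.49, 20.2 and 12.5 CPM in control mice and 178, 181 and 183 CPM in LPS mice. Dusp1, a phosphatase of MAP kinases, fell, with -1.60, and Tsc22d3 had a log2 fold change of -0.12 and did not pass. Fkbp5, Zbtb16 and Tat rose in the same mice as Per1, and the part of these genes in the rise of Per1 was not tested. Of 8 genes that respond to temperature, Rbm3, a cold-induced RNA-binding protein, rose from 13.3 to 26.2 CPM in control mice to 82.3 to 85.6 CPM in LPS mice (adjusted p = 8.78e-06, edgeR), and 0 fell, the same count as at an unadjusted p below 0.05 in edgeR and by DESeq2. Without control mouse 3, 3 of the 8 were higher. Cirbp, another cold-induced gene, had a log2 fold change of 0.080.

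The genes whose pattern over the 7 mice was nearest to that of 3 clock genes were found by the root mean square difference of mean-centred log2 CPM, the candidates being 12370 genes averaging 1 CPM or more. For Clock they were Cd164, Larp4 and Iqgap2, with differences of 0.0621, 0.0682 and 0.0688. For Dbp they were Cd81, Fyco1 and Srsf6, with 0.0385, 0.0671 and 0.0721. For Nr1d1 they were Irag1, Elapor1 and Spc24, with 0.143, 0.281 and 0.309. These genes were picked for their pattern, so their own fold changes and order of mice follow from the choice and say nothing more about the clock genes.

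Some clock genes share their place in the genome with a gene on the other strand. By GENCODE M21, exons of Nr1d1 overlap Thra, which encodes a thyroid hormone receptor, and exons of Dbp overlap Sphk2, a sphingosine kinase, while Tef overlaps Gm17597 and Bhlhe41 overlaps Gm43909. The libraries keep the strand, but the strand setting of the counting is not given in the sources used here, so reads of such a pair may not be told apart. Thra had 8.27, 8.13, 6.59 and 10.1 CPM in control mice and 5.25, 5.92 and 6.84 CPM in LPS mice, with LPS mouse 3 the highest of its group where Nr1d1 was lowest. Sphk2 had 16.5 to 23.1 CPM in control mice and 23.2 to 25.8 CPM in LPS mice, above all control mice, opposite to the order of Dbp. Thra and Sphk2 did not pass the test, with log2 fold changes of -0.47 and 0.31.

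Promoter sequence was read from RefSeq for build GRCm38.p6, while the counts were made on GRCm39, so positions here are not positions in the counted annotation. Windows from 250 bases before to 50 bases after a transcription start were found for 9 of the 10 clock genes, 13 windows in all, and Per2 had no entry. Exact words were searched on both strands. The E-box CACGTG, which reads the same on both strands, was in 5 of the 13 windows (Per1, Cry1, Tef with 2 and Bhlhe41) and is in 7.15% of 32851 promoters. The D-box, as TTATGTAA or TTATGCAA, was in 1 of the 13 windows, in Per1, and is in 1.66% of promoters. The ROR element, as TAGGTCA or TGGGTCA, was in 1 of the 13, in Nfil3, and is in 6.45%. The cAMP element TGACGTCA was in 0 of the 13, and is in 1.79%. Among the other core clock genes, Ciart had 3 E-boxes in its window, Per3 had 2 D-boxes, Hlf had the cAMP element and Arntl had the ROR element TAGGTCA after 1 of its 2 starts. A match describes letters in the window and not binding.

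The 250 bases before the start are shown for Per1 and Ciart, which rose and carry the E-box, and for Nfil3, which rose and carries the ROR element, with the words in capitals. Per1 is on the plus strand at chr11:69098699-69098948, with the E-box 166 and the D-box 24 bases before start 1. The window of start 2 of Per1 holds none of the words searched and is not shown. Ciart is on the minus strand at chr3:95882229-95882478, with E-boxes 116, 58 and 44 bases before the start. Nfil3 is on the minus strand at chr13:52981040-52981289, and its word is the reverse complement of TAGGTCA, 12 bases before the start.
Per1: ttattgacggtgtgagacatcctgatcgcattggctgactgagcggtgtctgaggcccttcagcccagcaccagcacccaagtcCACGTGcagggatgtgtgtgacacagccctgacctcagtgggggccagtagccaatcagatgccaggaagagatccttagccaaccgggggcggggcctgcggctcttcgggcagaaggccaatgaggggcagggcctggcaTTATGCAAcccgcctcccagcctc
Ciart: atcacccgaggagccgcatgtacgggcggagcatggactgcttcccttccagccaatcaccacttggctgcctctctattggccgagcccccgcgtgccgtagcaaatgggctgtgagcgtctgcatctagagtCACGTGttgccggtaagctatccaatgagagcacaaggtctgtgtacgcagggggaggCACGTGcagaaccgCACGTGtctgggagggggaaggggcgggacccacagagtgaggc
Nfil3: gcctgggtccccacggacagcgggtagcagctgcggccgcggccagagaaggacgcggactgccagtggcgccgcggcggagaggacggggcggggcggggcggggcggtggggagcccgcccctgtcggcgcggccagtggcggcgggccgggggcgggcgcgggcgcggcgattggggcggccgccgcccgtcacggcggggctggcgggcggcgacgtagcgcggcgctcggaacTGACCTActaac

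The same E-box letters were in genes that did not pass or were not tested, shown for comparison with 12 bases on each side. They lie at chr10:85185097-85185126 on the minus strand for Cry1, chr15:81802534-81802563 and chr15:81811264-81811293 on the plus strand for 2 starts of Tef, and chr6:145865556-145865585 on the minus strand for Bhlhe41. Their distances before the start were 60, 127, 138 and 153 bases.
Cry1: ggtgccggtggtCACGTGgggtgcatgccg
Tef, start 1: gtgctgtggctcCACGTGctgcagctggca
Tef, start 2: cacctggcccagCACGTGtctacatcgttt
Bhlhe41: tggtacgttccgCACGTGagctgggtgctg

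Summed levels of cell type markers separated the groups for neutrophils and red cells and overlapped for the other 6 lists, and their part in the results on clock genes was not tested. The counts of markers that passed stand beside a background of 13.3% higher and 13% lower among all genes tested. Of 10 neutrophil markers, 8 were tested and 8 rose. Among these Ngp, Retnlg and Mmp8 had 0 or 1 counts in each control mouse, and S100a8, Cxcr2 and Mmp9 had at most 14. All of these passed the expression filter through the LPS mice, so the filter in large part decided this count. The summed level of the 10 markers was 5.23, 4.1, 1.95 and 3.43 CPM in control mice 1 to 4 and 222, 162 and 160 CPM in LPS mice 1 to 3. By read counts, which longer transcripts raise, S100a9 led them in each LPS mouse and Csf3r in each control mouse. Ly6g and Ngp had 0 counts in every control mouse, and Ly6g had 7, 0 and 1 counts in LPS mice. Of 10 macrophage markers, 5 rose, or 4 by DESeq2, and 1 fell. Their summed level was 151, 218, 203 and 131 CPM in control mice and 740, 199 and 209 CPM in LPS mice. Marco had 8889 counts in LPS mouse 1, where it led them by counts, and 1032 and 1054 in LPS mice 2 and 3, where Lyz2 led, while Clec4f led in each control mouse. Per1, Nr1d1, Nr1d2 and Nfil3 passed the test without LPS mouse 1, with log2 fold changes of 2.01, -1.66, -0.97 and 0.86. LPS mice 2 and 3 stay in that fit, with neutrophil sums of 162 and 160 CPM. The part of cell types in these calls was not tested.

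Beside the same background of 13.3% and 13%, of 11 hepatocyte markers in the table, 2 rose and 3 fell, or 3 and 4 by DESeq2. Alb led them in the 2 group means added together. Their summed level was 75421, 78768, 104160 and 89201 CPM in control mice and 68533, 81545 and 82066 CPM in LPS mice. Of 8 endothelial markers, led by Stab2 in that sum but by Pecam1 in each LPS mouse, 2 rose and 2 fell, with sums of 129, 164, 101 and 134 CPM in control mice and 167, 92.7 and 91 CPM in LPS mice. Of 8 stellate cell markers, led by Dcn in each mouse, 1 rose and 2 fell, with sums of 472, 324, 208 and 331 CPM in control mice and 341, 275 and 265 CPM in LPS mice. Of 6 cholangiocyte markers, led by Spp1 in each mouse, 1 rose, with sums of 263, 109, 72.1 and 117 CPM in control mice and 137, 165 and 159 CPM in LPS mice. Of 10 lymphocyte markers, led by Gzma in that sum and in each LPS mouse, 5 were tested, 1 rose and 2 fell, with sums of 9.4, 8.89, 6.29 and 4.79 CPM in control mice and 8.88, 7.59 and 10 CPM in LPS mice. Of 5 red cell markers, led by Hbb-bs in that sum, 4 fell, or 2 by DESeq2, with sums of 307, 183, 232 and 179 CPM in control mice and 136, 53.8 and 53.7 CPM in LPS mice. No marker of these lists was at 0 in every sample.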

How the data were processed

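The authors deposited raw gene counts, 56691 genes by 7 liver samples. The submitters' processing notes name cutadapt 1.9.1, HISAT2 2.2.1, HTSeq 0.6.1, DESeq2 1.34.0 and build GRCm39. Gene annotation, strand setting and handling of multi-mapping reads are not given in the sources used here.

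R 4.3.3 with edgeR 4.0.16 and Python 3.11.15 were used. After filterByExpr (13683 genes) and TMM scaling, a quasi-likelihood fit on group gave p-values, adjusted by Benjamini-Hochberg across those genes. SE is the absolute log2 fold change over the square root of F, and 95% intervals use t quantiles. Log2 CPM has a prior count of 2. Ratios of summed counts have exact binomial intervals. Steps were tried on simulated counts.

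Named genes are the clock genes, the 3 smallest p per direction in each linked list, some that did not pass, the 3 nearest patterns, overlapping genes and leading markers. Genes left out of the lists are not reported here. Members and lists were chosen with earlier results of these data known. Alternatives were DESeq2 1.42.0, other scalings, filters and thresholds, a replicate block, leaving out each mouse, and LPS mice 2 and 3 summed. Those for linked lists, other named genes and within-mouse differences, and the spread with a mouse left out, were chosen after seeing the data.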

Additional observations from a re-analysis of the deposited data

Results flagged for a closer look

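Among control mice, 18 clock genes were examined for a mouse far from the other 3 by Dixon's ratio on log2 CPM, and 0 of 18 stood out at the 95% critical value. Chance gives about 1 in 20 groups.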

How the results depend on the processing

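Per1, Nfil3, Nr1d1 and Nr1d2 kept their direction and their call in all 16 refits, with log2 fold changes of 1.97 to 2.48, 0.64 to 0.93, -2.21 to -1.36 and -1.11 to -0.95, and with adjusted p-values of at most 0.00129, 0.0319, 0.0126 and 0.00323. At an adjusted p below 0.01, 1091 genes were higher and 993 lower, and with over 2-fold required 1068 and 1000, of which 1 and 1 were clock genes of the list. Leaving out 1 mouse gave 1146 to 1868 lower genes. Of the other core clock genes, 0 were higher with at least 10 counts in every sample, which Ciart does not reach. Of the same genes 0 were lower with that filter, which Arntl2 with 5 and 6 counts in LPS mice 2 and 3 does not reach, or at an adjusted p below 0.01, where Arntl2 is at 0.0427. With the replicate block or LPS mice 2 and 3 summed 0 were lower too, and leaving out 1 mouse gave 0 to 1 lower. The cause was not tested. Without control mouse 1 the gene that was lower was Bhlhe40 (adjusted p = 0.0108, edgeR) and not Arntl2. With no filter it was again Bhlhe40 (adjusted p = 0.0231, edgeR) and not Arntl2 (adjusted p = 0.0509, edgeR). DESeq2 called 1 higher and 1 lower, and at an unadjusted p below 0.05 edgeR had 1 and 1.

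Log2 fold changes near zero changed sign, each far from the threshold. Per2 went to 0.061 with the replicate block, 0.041 with LPS mice 2 and 3 summed and -0.37 to 0.37 with 1 mouse left out. Cry1 went to 0.061 with the block and -0.37 to 0.25 with 1 mouse left out, and Tsc22d3 to 0.060 and -0.35 to 0.079. With total counts, which shift the median of all genes to -0.13, Cry2 was -0.039, Rora -0.068 and Cirbp -0.045. With 1 mouse left out, Rora ranged from -0.068 to 0.25, Cirbp from -0.0092 to 0.25 and Cd164 from -0.19 to 0.0072. The difference of Nr1d1 minus Arntl ranged from -2.02 to -1.005, that of Per2 minus Arntl from -0.13 to 0.88 and that of Dbp minus Arntl from -0.43 to -0.018, and the median SD of the clock genes among LPS mice from 0.0634 to 0.233.

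The numbers 1 to 3 that both groups share belong to different animals, and the sources used here do not say whether they mark anything in common. Deviations of same-numbered mice had correlations of 0.181, -0.0617 and 0.0662 across genes. Those of differently numbered mice ran from -0.141 to 0.0974, so number 1 lay above them and numbers 2 and 3 lay within. With the replicate block, to which control mouse 4 adds nothing, 1647 genes were higher and 1587 lower, and the clock genes kept 2 higher and 2 lower.

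Low counts of Dbp, Bhlhe41, Per3 and Arntl2 limit their precision, and every p-value rests on 3 LPS mice, of which 2 were near alike.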

Other observations

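Per3 shared the ends of the Per2 order among control mice, with 1.98 CPM in control mouse 1 and 0.366 CPM in control mouse 3, and 0.693 and 1.3 CPM in control mice 2 and 4. The LPS mice lay inside that range, at 0.414, 0.708 and 0.56 CPM. This was noticed after the values were seen and was not tested. Control mice 1 and 3 were also the highest and the lowest of their group in mitochondrial share of counts.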
